A study of Mus musculus with 12 samples.

Results

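Genes of the cell division cycle were followed in RNA-Seq libraries of the proximal colon from mice with and without the long noncoding RNA EPR in the intestinal epithelium. The 47 genes were those of a fixed list, found by gene symbol among the 55376 genes of the count table, and they comprised 21 S phase genes, 24 G2/M genes and the D-type cyclins Ccnd1 and Ccnd2. In all, 6 EPR fl/fl mice (loxP sites around the EPR promoter and exon 1, no Cre, used as controls) were compared with 6 EPR cKO mice (the same floxed alleles plus the CDX2P-NLS Cre transgene). All 12 mice were 12 weeks old and each gave 1 library from the proximal colon wall. The Cre is driven by a human CDX2 promoter and acts in epithelial cells of the distal ileum, cecum and colon, so that muscle, stroma and immune cells of the same libraries keep the allele. The comparison bears on whether loss of EPR goes with a change in proliferation, which the study addressed by staining MKI67 and phosphorylated histone H3 in crypts. RNA-Seq reads the transcripts of such genes and not the phosphorylated proteins.

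Colon epithelium renews continuously from dividing cells in the lower crypt, while the cells nearer the lumen have left the cycle. Cells entering S phase transcribe the replication machinery, largely under E2F factors that are released when cyclin D and cyclin E kinases phosphorylate the retinoblastoma protein. Cells in G2 and M transcribe cyclin B, spindle and kinetochore genes later, through the CHR promoter element and nearby CCAAT boxes bound by the MuvB-based complexes and NF-Y. In whole tissue these transcripts therefore report how many cells cycle as well as how much each one transcribes.

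The separation into S phase and G2/M genes could be seen in the promoters. RefSeq promoter sequences (300 bases around the start given by that source, GRCm38.p6) were matched for 36 of the 47 genes. That start can differ from the one in the annotation used for counting. The stretches for Cdc6, Dut and Mcm7, for example, lie wholly inside the gene as counted. The letters searched, on both strands and with overlapping matches counted, were TTTGAA or TTCGAA for CHR and CCAAT for the CCAAT box. For E2F they were TTCCCGC with its variant TTGGCGC and also TTCGCGC or else TTGCCGC. A CHR match was present in 15 of 18 G2/M promoters (83.3%) and in 3 of 18 S phase promoters (16.7%), beside 21.7% of all 27025 genes with a promoter. E2F letters were present in 12 of 18 S phase promoters (66.7%) and in 3 of 18 G2/M promoters (16.7%), beside 10.9% of all genes. CCAAT was found in 94.4% of the G2/M, 61.1% of the S phase and 41.1% of all promoters. Among the genes expressed highly enough to be tested here, the shares were 16.7% for CHR, 18.5% for E2F and 42.4% for CCAAT. The G2/M promoters without a CHR match were those of Ccnb1, Birc5 and Cenpe, and the S phase promoters with one were those of Mcm2, Mcm7 and E2f8. Mcm7 and Uhrf1 have 2 promoter entries each, and a match in either was counted. A match describes letters and does not show binding.

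The promoters of a pair of S phase genes (Mcm3 and Cdc6) and of a pair of G2/M genes (Mki67 and Cdk1) are shown because these genes are followed through the results. Mki67 and Cdk1 are, with Ccnb1, the 3 G2/M promoters that also hold E2F letters. Each line reads 5′ to 3′ along the gene, and capitals mark every match on either strand, so that CCAAT appears as ATTGG and TTCCCGC as GCGGGAA where the match lies on the other strand. In Mcm3 the last E2F match overlaps its own reverse complement and was counted on each strand.
Mcm3, chr1:20820263-20820562, minus strand: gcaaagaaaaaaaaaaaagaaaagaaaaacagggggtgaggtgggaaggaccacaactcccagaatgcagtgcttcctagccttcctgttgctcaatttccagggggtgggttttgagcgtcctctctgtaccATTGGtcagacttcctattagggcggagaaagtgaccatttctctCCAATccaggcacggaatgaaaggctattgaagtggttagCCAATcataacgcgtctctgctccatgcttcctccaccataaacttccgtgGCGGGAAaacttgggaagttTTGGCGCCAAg
Cdc6, chr11:98907901-98908200, plus strand: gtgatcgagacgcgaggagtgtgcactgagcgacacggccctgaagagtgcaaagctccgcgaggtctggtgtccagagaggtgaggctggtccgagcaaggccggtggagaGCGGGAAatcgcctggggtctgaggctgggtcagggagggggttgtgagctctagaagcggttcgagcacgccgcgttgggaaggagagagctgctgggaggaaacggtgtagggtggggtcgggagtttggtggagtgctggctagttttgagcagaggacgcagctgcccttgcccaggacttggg
Mki67, chr7:135716330-135716629, minus strand: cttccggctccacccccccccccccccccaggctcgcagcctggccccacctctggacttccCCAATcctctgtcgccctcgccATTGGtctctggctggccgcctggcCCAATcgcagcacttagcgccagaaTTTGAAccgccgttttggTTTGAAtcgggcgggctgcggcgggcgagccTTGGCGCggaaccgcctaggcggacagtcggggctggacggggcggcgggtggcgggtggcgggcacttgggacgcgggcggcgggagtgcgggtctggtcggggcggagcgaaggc
Cdk1, chr10:69352863-69353162, minus strand: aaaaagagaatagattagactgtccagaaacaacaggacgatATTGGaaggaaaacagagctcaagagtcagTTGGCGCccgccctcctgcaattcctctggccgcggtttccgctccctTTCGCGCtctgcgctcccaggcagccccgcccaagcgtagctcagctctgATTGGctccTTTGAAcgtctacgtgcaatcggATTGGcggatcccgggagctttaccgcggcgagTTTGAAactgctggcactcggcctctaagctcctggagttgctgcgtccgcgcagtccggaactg

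Depth and composition of the libraries set the frame for these values. Total counts ranged from 13093904 to 33211041, the spread between animals common to all genes (biological coefficient of variation) was 26.1%, and log2 fold changes had a median SE of 0.14. EPR, listed as Smim31, had 297 to 1474 counts in the control libraries and 0 to 10 in EPR cKO. A single library stood apart, EPR cKO 1, in which 10 smooth muscle markers summed to 10186 CPM (counts scaled to library size with TMM factors) against 1233 to 3018 in the other EPR cKO and 3436 to 5854 in the EPR fl/fl libraries. The main results are given with and without it. An epithelial score was computed for each library as the mean log2 CPM of 24 epithelial genes such as Epcam, Cdh1 and Vil1. It ranged from 8.12 to 8.28 in EPR fl/fl and from 7.98, in EPR cKO 1, to 8.57 in EPR cKO, a difference of 0.20 (two-sided exact permutation p = 0.0563, n = 6 per group). Without EPR cKO 1, the library with the lowest score, the scores of the groups did not overlap (difference 0.28, exact p = 0.00216, the smallest the design gives). With any other single library left out, the exact permutation p was between 0.0563 and 0.117. Proximal colon markers were abundant in all libraries (summed CPM 12970 to 21594). A list of 8 small intestine markers summed to 20.4 to 81.6 CPM in EPR fl/fl and 28.9 to 45.9 in EPR cKO. Of these 8, 4 were abundant enough to be tested, while the Paneth cell defensin Defa24 reached at most 1 count.

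All 47 genes passed the expression filter and were tested. Together they took 0.161% ± 0.024 (SD, n = 6) of the counts in EPR fl/fl and 0.192% ± 0.048 (n = 6) in EPR cKO. Per kilobase of exon, the most abundant in EPR fl/fl was Pcna, the sliding clamp of the replication fork, at 36.8 ± 5.26 CPM per kb. Ccnd2, which encodes a D-type cyclin, followed at 29.6 ± 8.25, Top2a, the DNA-untangling topoisomerase of dividing cells, at 28.2 ± 4.75, and Mki67, the proliferation antigen that coats mitotic chromosomes, at 23.5 ± 4.53 CPM per kb. The least abundant were Cdc6, which loads the replicative helicase, at 1.02 ± 0.16 CPM per kb and the transcription factor gene E2f1 at 1.03 ± 0.18. The means of Pcna and Ccnd2, Ccnd2 and Top2a, Top2a and Mki67, and E2f1 and Cdc6 each lay within the sum of their SDs. These genes were read in the same libraries, and their order within each library was not tested.

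With no covariate, each of the 47 genes had a higher fitted level in EPR cKO, and none passed an adjusted p of 0.05 over the 15952 genes tested (edgeR quasi-likelihood test). The log2 fold change was above 0 for 52.9% of all tested genes, and 2.46% of all genes were called in either direction, 0.884% as higher. At an unadjusted p under 0.05, 12 of the 47 were higher, 11 of them S phase genes, beside 11.1% of all genes. The median log2 fold change was 0.48 for the 21 S phase genes and 0.25 for the 24 G2/M genes, against 0.017 for all genes. The difference between these medians was not tested. Fewer or more cycling cells and less or more RNA per cell cannot be told apart in whole tissue. The limits on fold change and adjusted p used in the study were met by 0 of the 47, the largest log2 fold change being 0.66.

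**Figure D1:**
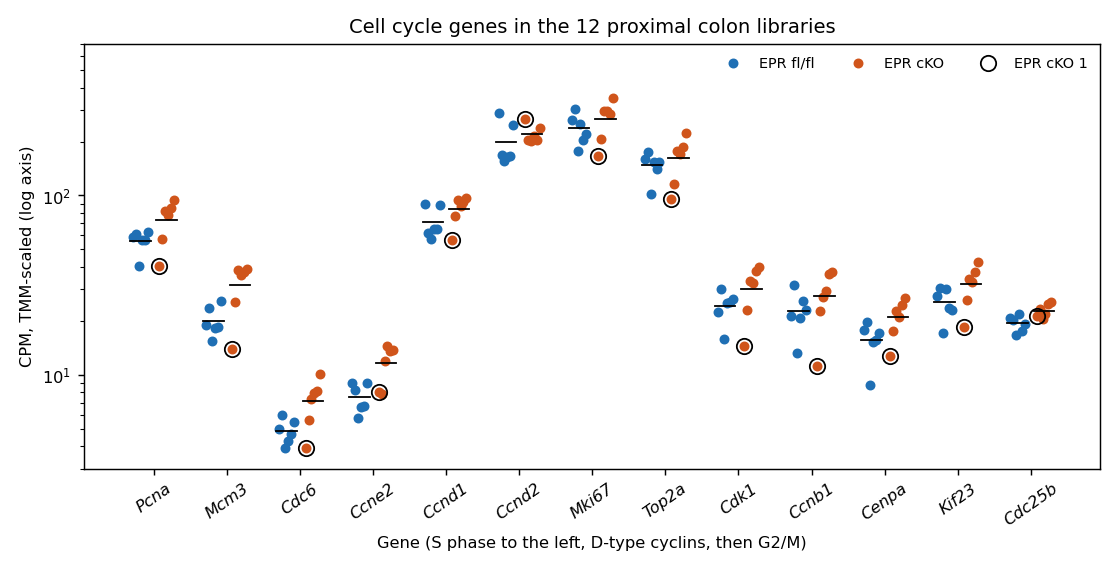
CPM (log axis, TMM-scaled) of 13 cell cycle genes in each library, EPR fl/fl in blue and EPR cKO in orange, with a bar at the mean of 6 and a ring around EPR cKO 1. For Mcm3 and Pcna, EPR cKO 1 and 2 lie within or below the EPR fl/fl range and the other 4 EPR cKO libraries above it, while the groups overlap widely for Ccnd2 and Mki67.

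Among the S phase genes, those that license and unwind origins of replication had log2 fold changes from 0.43 to 0.66. Mcm3, a subunit of the MCM2-7 helicase, spanned 15.5 to 25.6 CPM in EPR fl/fl (median 18.6) and 13.9 to 39.1 in EPR cKO (median 36.6). In all, 4 EPR cKO libraries lay above every EPR fl/fl library and EPR cKO 1 lay below them all. Its log2 fold change was 0.66 (SE 0.22 and adjusted p = 0.144). The other helicase subunits Mcm2, Mcm4, Mcm5, Mcm6 and Mcm7 had log2 fold changes from 0.43 to 0.58, each with 4 EPR cKO libraries above the EPR fl/fl range. Cdc6 ranged from 3.92 to 6.00 CPM in EPR fl/fl (median 4.81) and from 3.90 to 10.0 in EPR cKO (median 7.62), with a log2 fold change of 0.55 (SE 0.20 and adjusted p = 0.184). Cdt1, which brings the helicase to origins with Cdc6, had a log2 fold change of 0.50 and Gins2, a subunit of the active helicase, 0.49.

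Cyclin E, which drives entry into S phase with Cdk2, included the gene with the smallest p of the whole list. Ccne2 (chromosome 4, 11191354 to 11204779, plus strand, mm10) ranged from 5.75 to 9.05 CPM in EPR fl/fl (median 7.46) and from 7.78 to 14.5 in EPR cKO (median 12.7). EPR cKO 1 and 2 fell within the control range and the other 4 above it. The log2 fold change was 0.62 (SE 0.19 and adjusted p = 0.103). Ccne1 had a log2 fold change of 0.59 (SE 0.27 and adjusted p = 0.275), and Cdk2 one of 0.22 (SE 0.11), with an SD of 0.43 CPM around 17.7 in EPR fl/fl, far tighter than the 3.45 around 20.6 in EPR cKO.

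At the replication fork, Pcna (chromosome 2, 132249162 to 132253314, minus strand, mm10) ranged from 40.4 to 62.4 CPM in EPR fl/fl (median 57.4) and from 40.7 to 93.8 in EPR cKO (median 79.7), a log2 fold change of 0.38 (SE 0.18 and adjusted p = 0.279). Its lowest value in each group came from EPR fl/fl 3 and EPR cKO 1. Nucleotide supply genes had log2 fold changes of 0.62 for Rrm2 and 0.35 for Rrm1 (the ribonucleotide reductase subunits), 0.37 for Tyms (thymidylate synthase) and 0.29 for Dut (the dUTPase). Chromatin copying genes Uhrf1, which maintains DNA methylation, and Chaf1b, a histone chaperone subunit, stood at 0.60 and 0.49. E2f1 and E2f8, the latter a repressive E2F, stood at 0.27 and 0.29.

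The G2/M genes had smaller fold changes. Mki67 ranged from 177 to 303 CPM in EPR fl/fl (median 236) and from 167 to 349 in EPR cKO (median 292). Only 1 EPR cKO library exceeded the control range, and EPR cKO 1 lay below it. Its log2 fold change was 0.18 (SE 0.18 and adjusted p = 0.61). Top2a ranged from 102 to 175 CPM (median 153) and from 96.0 to 222 CPM (median 174) in EPR fl/fl and EPR cKO, a log2 fold change of 0.13 (SE 0.19 and adjusted p = 0.719).

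The kinase that starts mitosis and its partners had similar values. Cdk1 spanned 15.8 to 30.1 CPM in EPR fl/fl (median 25.4) and 14.5 to 39.8 in EPR cKO (median 32.9), with a log2 fold change of 0.31 (SE 0.22 and adjusted p = 0.467). Ccnb1, encoding its partner cyclin B1, spanned 13.3 to 31.6 CPM (median 22.1) and 11.1 to 37.6 (median 28.1), with 0.28 (SE 0.26 and adjusted p = 0.588). Both pairs of groups overlapped. These 4 values moved with single libraries, from 0.087 to 0.26 for Mki67, 0.025 to 0.23 for Top2a, 0.21 to 0.44 for Cdk1 and 0.16 to 0.42 for Ccnb1. Each was highest without EPR cKO 1. Mki67 and Top2a were lowest without EPR cKO 6 (Top2a was at 0.046 without EPR fl/fl 3), and Cdk1 and Ccnb1 without EPR fl/fl 3. Ccnb2 stood at 0.23 and Ccna2, cyclin A2, at 0.38. Cdc25b, a phosphatase that switches Cdk1 on, had the smallest p among the G2/M genes. It ranged from 16.6 to 21.9 CPM in EPR fl/fl (median 19.8) and from 20.6 to 25.4 in EPR cKO (median 22.4), with a log2 fold change of 0.23 (SE 0.088 and adjusted p = 0.187). Here EPR cKO 1, at 21.3 CPM, was not the lowest of its group. Cdc25c had 0.22 and the mitotic transcription factor gene Foxm1 0.23.

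Spindle and kinetochore genes covered the range from 0.051 to 0.42. Cenpa, the histone H3 variant of centromeres, ranged from 8.79 to 19.8 CPM in EPR fl/fl (median 16.4) and from 12.7 to 26.8 in EPR cKO (median 21.9), a log2 fold change of 0.42 (SE 0.20 and adjusted p = 0.295). Kif23, the central spindle motor of cytokinesis, ranged from 17.0 to 30.6 CPM (median 25.6) and from 18.6 to 42.6 (median 33.4), with 0.33 (SE 0.19 and adjusted p = 0.369). For both genes 4 EPR cKO libraries exceeded the control range. The mitotic kinases Plk1, Aurka, Aurkb, Bub1 and Bub1b lay between 0.19 and 0.34, the motors Kif11 and Kif20a at 0.21 and 0.25, and the spindle assembly factor Tpx2 at 0.19. Birc5, survivin of the chromosomal passenger complex, was at 0.37, and Cdc20 and Ube2c, which act with the anaphase-promoting complex, were at 0.26 and 0.27. Cenpe and Cenpf, long kinetochore proteins, had the lowest values with Top2a, at 0.15 and 0.051.

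The D-type cyclins, which link growth signals to the cycle in G1, differed in pattern. Ccnd1 ranged from 57.5 to 89.4 CPM in EPR fl/fl (median 64.8) and from 56.2 to 96.9 in EPR cKO (median 90.1), with a log2 fold change of 0.24 (SE 0.15 and adjusted p = 0.405). Ccnd2 ranged from 156 to 289 CPM (median 167) and from 201 to 266 (median 210), with 0.16 (SE 0.16 and adjusted p = 0.601). For Ccnd2, EPR cKO 1 was the highest EPR cKO library, not the lowest, and the 2 highest control libraries exceeded 6 and 5 of the 6 EPR cKO libraries.

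Across libraries the S phase and G2/M genes followed the epithelial score. Pearson's r of log2 CPM with the score over the 12 libraries was between 0.70 and 0.95 for the S phase genes (median 0.88) and between 0.52 and 0.88 for the G2/M genes (median 0.80). These values share each library's depth and scaling, and they hold the group difference. Within the 6 EPR fl/fl libraries the median r was 0.62 for S phase and 0.50 for G2/M genes, and within the 6 EPR cKO libraries 0.92 and 0.94. For Mki67, r was 0.72 (permutation p = 0.01) and Spearman's rho 0.72 (p = 0.011), and r fell to 0.59 when EPR cKO 5 and 6, farthest from the median score, were left out. Within groups it was 0.32 in EPR fl/fl and 0.86 among EPR cKO libraries. For Pcna, r was 0.90 (permutation p = 8e-05), rho 0.92 (p = 9e-05) and r without those libraries 0.83, with 0.68 within EPR fl/fl and 0.92 within the EPR cKO group. Ccnd2 had r = 0.14 (permutation p = 0.67) and rho = 0.27 (p = 0.4), with 0.71 within EPR fl/fl and -0.66 within EPR cKO. Over these 3 relations the adjusted p for r was 0.015 for Mki67, 0.00024 for Pcna and 0.67 for Ccnd2, and for rho 0.0165, 0.00027 and 0.4.

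**Figure D2:**
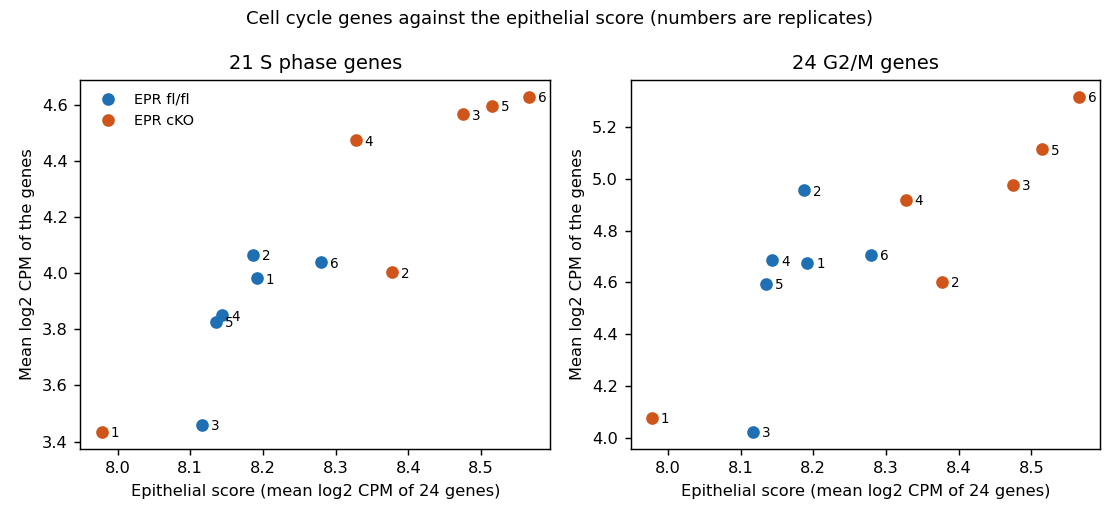
Mean log2 CPM of the 21 S phase genes (left) and the 24 G2/M genes (right) against the epithelial score of each library, with EPR fl/fl in blue, EPR cKO in orange and replicate numbers beside the points. EPR cKO 1 has the lowest score and, with EPR fl/fl 3, the lowest means, and EPR cKO 6 has the highest of each.

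With the epithelial score as a covariate, the sign of most genes turned and again 0 of the 47 were called at an adjusted p under 0.05, while 1.29% of all genes were. At an unadjusted p under 0.05, 1 of the 47 was lower (Ccnb2), beside 7.01% of all genes, and 0 were higher. In this fit 10 genes were above 0 and 37 below, where 46.9% of all genes were below. The median was -0.040 for S phase and -0.21 for G2/M genes. Among the S phase genes Ccne2 was highest at 0.34 (SE 0.18 and adjusted p = 0.479), followed by Rrm2 at 0.24 and Ccne1 at 0.18. Mcm3 went from 0.66 to 0.082 and Pcna from 0.38 to -0.056, the latter at 0.018 where libraries were scaled by total counts only. With that scaling the S phase median was 0.039 and the median of all genes -0.074. The 24 genes of the score had a median of 0.25 themselves with no covariate, 22 of them above 0. Of the 24, 1 was called higher, beside 0.884% of all genes, and 12 were without EPR cKO 1, beside 7.44%. A change of these genes with genotype and a change in epithelial share cannot be told apart.

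Of the 24 G2/M genes 22 were below 0 with the score, the exceptions being Cdc25b at 0.16 and Cenpa at 0.016. The lowest were Ccnb1 at -0.37 (SE 0.21 and adjusted p = 0.506) and Ccnb2 at -0.33 (SE 0.14 and adjusted p = 0.35). Mki67 was at -0.17 (SE 0.16 and adjusted p = 0.736), Top2a at -0.28 (SE 0.15 and adjusted p = 0.479) and Cdk1 at -0.23 (SE 0.17 and adjusted p = 0.633). Without EPR fl/fl 3, the control library with the lowest level of these genes, Ccnb2 was called lower at -0.40 (adjusted p = 0.0409). That fit called 189 of all 15813 genes lower. The fitted slopes on the score had a median of 2.09 for S phase and 2.10 for G2/M genes in log2 CPM per unit of score, against 0.017 for all genes. A slope of 1 would be a change in proportion to the epithelial genes.

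**Figure D3:**
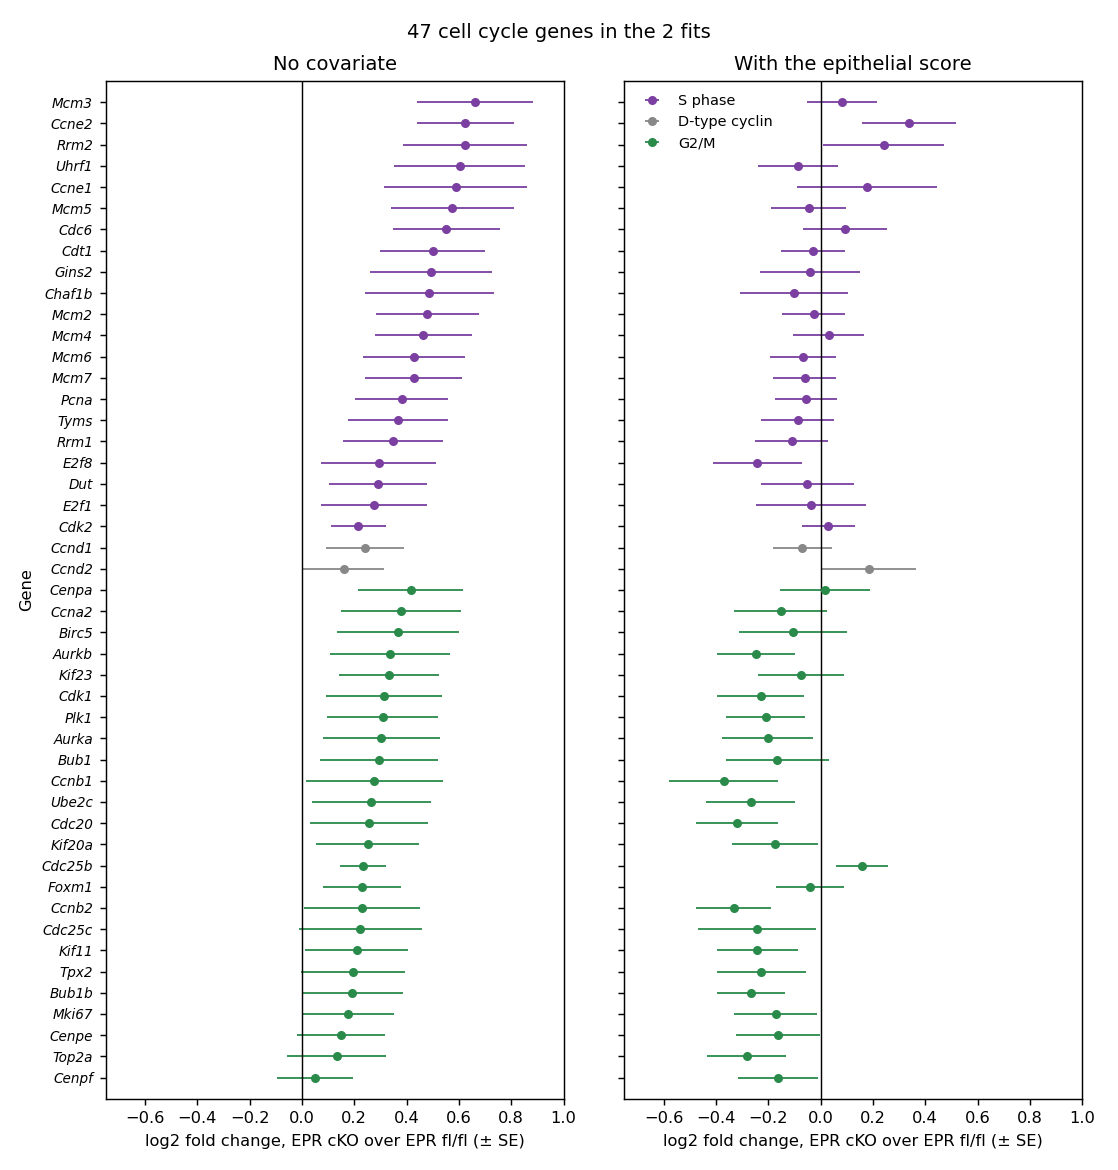
Log2 fold change (EPR cKO over EPR fl/fl, ± SE) of each of the 47 genes, without a covariate on the left and with the epithelial score on the right, S phase in purple, D-type cyclins in grey and G2/M in green. All 47 points lie right of 0 on the left panel, and 37 lie left of 0 on the right panel.

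A description that fixes the slope at 1 is each library's mean log2 CPM of the genes minus its score. For the S phase genes it was -4.30 ± 0.18 (SD, n = 6) in EPR fl/fl against -4.09 ± 0.29 in EPR cKO. For the G2/M genes it was -3.57 ± 0.29 and -3.54 ± 0.25. The differences were 0.22 and 0.030. Without EPR cKO 1 the EPR cKO means were -4.00 ± 0.21 (n = 5) for S phase and -3.47 ± 0.19 for G2/M genes, and the differences 0.31 and 0.10. The S phase difference was thus smaller than the larger SD with EPR cKO 1 and larger than both SDs without it. The S phase mean minus the G2/M mean, from which the score drops out, was -0.74 ± 0.12 (SD, n = 6) in EPR fl/fl against -0.55 ± 0.11 in EPR cKO. The difference of 0.19, or 0.20 without EPR cKO 1, exceeded both SDs, while the ranges (-0.89 to -0.56 and -0.69 to -0.41) overlapped. None of these means over genes was tested.

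Leaving out EPR cKO 1 changed the calls for S phase genes and not for G2/M genes. With no covariate, 17 of 21 S phase genes then rose at an adjusted p under 0.05, 0 of 24 G2/M genes and 0 of the D-type cyclins did, while 7.44% of all 15836 genes were called higher and 21.8% in either direction. The medians were 0.60 for S phase and 0.36 for G2/M genes. Mcm3 rose by 0.80 on the log2 scale (SE 0.14 and adjusted p = 0.0037), Uhrf1 by 0.75 and Ccne2 by 0.69 (SE 0.17 and adjusted p = 0.0152). Pcna rose by 0.48 (SE 0.13 and adjusted p = 0.0221). The S phase genes not called were Dut, Ccne1, E2f1 and E2f8, with adjusted p from 0.0584 to 0.199. All 24 G2/M genes were above 0. Among them Cenpa came nearest at 0.51 (adjusted p = 0.0592), then Kif23 at 0.43 (adjusted p = 0.0651) and Ccna2 at 0.50 (adjusted p = 0.0686). Mki67 was at 0.26 (SE 0.15 and adjusted p = 0.221). That more S phase than G2/M genes passed is a count and was not tested as a difference. Without EPR cKO 1 the epithelial score separated the groups fully, so that group and epithelial share cannot be told apart in that fit. With the score it gave medians of 0.078 for S phase and -0.22 for G2/M genes. It then gave 0 calls among the 47 and 2 among all 15836 genes.

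Other fits kept all 12 libraries and reached some of the same genes. limma-voom with library weights gave EPR cKO 1 a weight of 0.243 and called 17 of the 47 higher, 16 S phase genes and Ccnd1, of which 15 were among the 17 called without EPR cKO 1. That fit called 8.6% of all genes higher. DESeq2 called 1 of the 47, Ccne2, at a log2 fold change of 0.62, and 2.76% of all genes higher. None of the 3 called a G2/M gene.

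**Figure D4:**
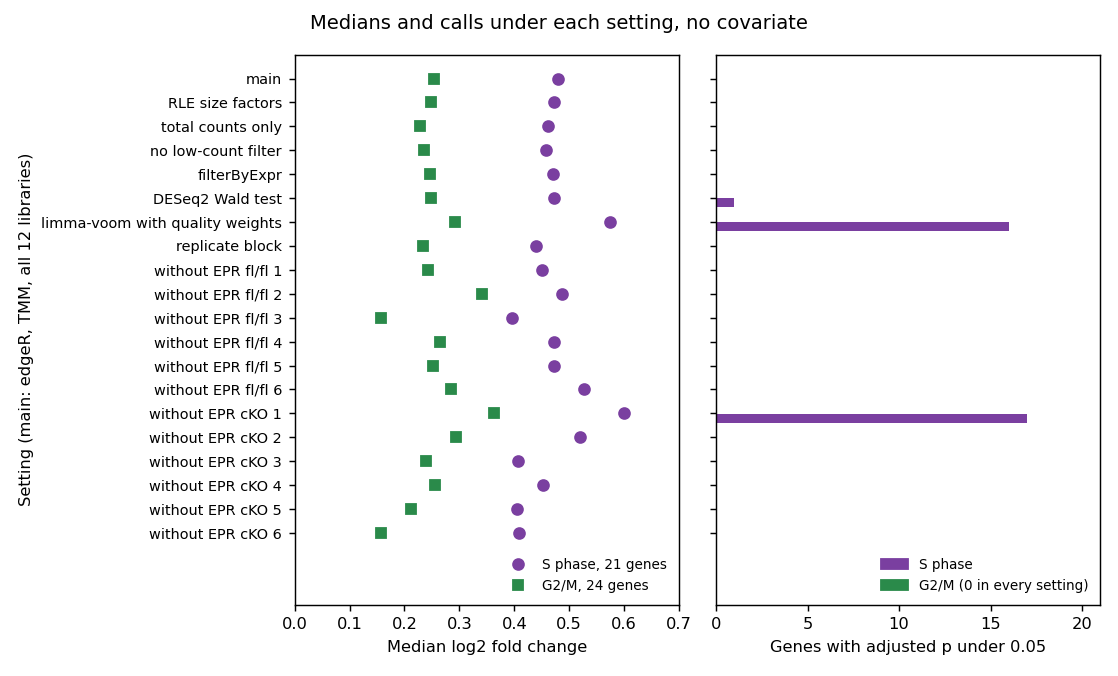
Left, median log2 fold change without covariate of the 21 S phase genes (circles) and the 24 G2/M genes (squares) under each setting. Right, the number of genes at an adjusted p under 0.05. The S phase median exceeds the G2/M median in each setting, and 16 and 17 S phase genes are called with quality weights and without EPR cKO 1.

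Other genes of the same machinery gave the wider view. Of 48 other DNA replication genes, such as origin recognition, polymerase and clamp loader subunits, 45 were above 0 and 0 were called, with a median of 0.29, and with the score the median was -0.039 with 17 above 0. Of 63 other mitosis genes 62 were above 0 and 0 were called, with a median of 0.23, against -0.18 and 4 above 0 with the score. Without EPR cKO 1 and with no covariate, 15 of the 48 replication genes and 3 of the 63 mitosis genes were called higher, where 7.44% of all genes were, at medians of 0.36 and 0.33. Of 17 G1 regulators 1 rose, E2f3, an activating E2F, from 21.4 ± 2.80 CPM (SD, n = 6) in EPR fl/fl to 29.2 ± 2.27 in EPR cKO (log2 fold change 0.45, SE 0.094, adjusted p = 0.0249). Of 24 tested brakes and exit genes 1 rose, E2f4, the E2F of the repressive DREAM complex of resting cells, from 25.0 ± 1.26 to a mean of 32.8 CPM (log2 fold change 0.39, SE 0.078, adjusted p = 0.0209). For both genes all 6 EPR cKO libraries lay above all 6 EPR fl/fl libraries, which held for 1% of all genes, or 2.47% in either direction.

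Neither E2F call held in edgeR with the epithelial score (E2f3 0.35, adjusted p = 0.137, and E2f4 0.27, adjusted p = 0.117), or without EPR fl/fl 3, 4 or 5 or EPR cKO 3 or 6, where E2f4 was at 0.33 to 0.40. E2f3 also lost its call without EPR cKO 2, 4 or 5, at 0.40 to 0.46 over all these fits. Cdkn1a, the p21 inhibitor of cyclin kinases, had 109 ± 28.0 CPM in EPR fl/fl against 144 ± 16.5 in EPR cKO, a log2 fold change of 0.40 (SE 0.15 and adjusted p = 0.184), and 0.45 with the score (adjusted p = 0.274). With the score but without EPR cKO 1 it was -0.038. The limma-voom fit with no covariate called Cdkn1a higher at 0.42 (adjusted p = 0.046), where 8.6% of all genes were. Cdkn2a, at 5 counts or fewer in each library, was not tested.

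Replication-dependent histone genes, whose transcripts accumulate in S phase, lack a poly(A) tail and are kept by ribosomal depletion. Of 70 listed 58 were tested, and 49 of these were above 0 with a median of 0.20 and 0 calls. With the epithelial score the median was -0.51, and Hist1h2bm, Hist1h2bn, Hist1h2bb, Hist1h2ab and Hist1h3b fell at adjusted p from 0.0246 to 0.0423, beside 1.12% of all genes called lower. Hist1h2bm, for example, had 30.9 ± 7.10 CPM (SD, n = 6) in EPR fl/fl against 34.4 ± 16.5 in EPR cKO and a fitted value of -0.86 (SE 0.17) with the score. Without the covariate all 5 had fitted values above 0, and the median slope of the histone genes on the score was 3.42. The histone median with the score was -0.61 without EPR cKO 1, with 55 of 58 below 0 as before, and 0 were called in a fit that called 2 of 15836 genes. With total counts, no low-count filter, the replicate block or the epithelial minus smooth muscle score 0 were called either, at medians of -0.38 to -0.46. Histone copies are near-identical, 51 of the 58 sharing at least 10% of their 50-base stretches with another gene, and how the counting treated such reads is not stated.

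**Figure D5:**
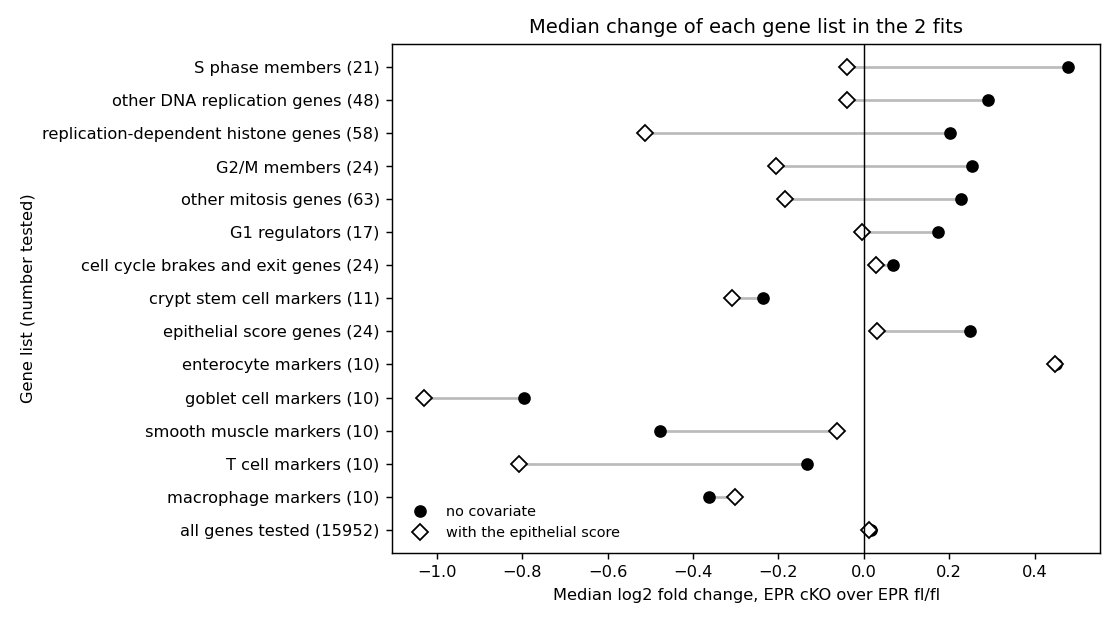
Median log2 fold change (EPR cKO over EPR fl/fl) of each gene list, with the number of genes tested, without a covariate (filled circles) and with the epithelial score (open diamonds). The replication, histone and mitosis lists lie above 0 without the covariate and below it with the covariate, while goblet cell markers lie below 0 in both.

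Markers of the cells present moved beside these genes. Crypt stem cell markers, the epithelial compartment that feeds the dividing cells, had a median of -0.24 over 11 tested genes with 0 called, and their summed level was 328 to 447 CPM in EPR fl/fl and 300 to 387 in EPR cKO. Without EPR cKO 1 the stem cell median was -0.17 and 2 of the 11 were called lower, where 2273 of 15836 genes were. Olfm4 had at most 3 counts in any library. Enterocyte markers had a median of 0.45 with 0 of 10 called and summed to 10730 to 18024 CPM against 15948 to 27440. Goblet cell markers were called lower in 6 of 10 genes, where 251 of 15952 genes were, and in 9 of 10 without EPR cKO 1. All 10 were below 0, summing to 13468 to 28570 against 6226 to 8623 CPM. Smooth muscle markers were below 0 in 10 of 10 genes (0 called, median -0.48), and all 10 passed the expression filter. All 10 were called lower without EPR cKO 1 (median -1.28), in the fit that called 2273 of 15836 genes lower. Their summed level was then 1233 to 3018 CPM in EPR cKO, below every EPR fl/fl library.

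Dividing lymphocytes can also carry cell cycle transcripts. A list of 10 T cell markers summed to 21.6 to 76.8 CPM in EPR fl/fl and 23.6 to 61.0 in EPR cKO. All 10 of 10 were below 0 with 0 called. Without EPR cKO 1, 6 of 10 were below 0 and 1 was called lower, as were 2273 of 15836 genes. A list of 12 B cell and germinal centre markers summed to 137 to 325 and 138 to 370 CPM, of which 5 were abundant enough to be tested and 0 were called. The part of these cells in the values above was not tested.

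In all, 12 of the 47 genes share sequence with a copy or an antisense gene, so that their counts are uncertain. Within the annotation, 10% or more of the 50-base stretches were shared on the same strand by Pcna, Mcm7, Uhrf1, Ccnb1 and Cdc20, the largest being the 23.4% of Ccnb1 with its pseudogene Ccnb1-ps. On the opposite strand 65.4% of Gins2 lay within Gse1, and Kif20a, Ccnd1, Ube2c, Ccne2, Cdc25c and Ccna2 shared 11.4% to 25.2%. The kit marks strand, and whether the counting used it is not stated.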

How the data were processed

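RNA was taken from the proximal colon of 12 mice, 1 library each, by total RNA-Seq after ribosomal depletion. The authors trimmed reads with Trimmomatic, aligned them to mm10 with STAR 2.5.3a (version per the submitters' processing notes) and counted them with featureCounts on an Ensembl annotation. The deposited values were raw counts per gene, unfiltered. Strand setting and treatment of multi-mapping reads are not given in the sources used here. Groups came from the sample labels. Each count column matched 1 sample by name.

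Genes with at least 1 CPM in at least 4 libraries were kept (15952 of 55376). Counts were scaled by TMM and tested with edgeR 4.0.16 (R 4.3.3) by quasi-likelihood, without covariate and with the epithelial score (prior count 2), with Benjamini-Hochberg adjustment over all genes. SE was the absolute log2 fold change over the square root of F. Tests ran first on simulated data. Of the 30 within-group pairs of libraries none was a repeat (smallest chi-square per gene 20.9). Alternatives were RLE, total counts, other filters, DESeq2 1.42.0, limma-voom (limma 3.58.1), the replicate block, an epithelial minus smooth muscle score and each library left out.

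The genes and lists were chosen with earlier results of these data known. Values by library were given for Mki67, Pcna, Top2a, Cdk1, Ccnb1, Ccnd1, Ccnd2 and the 3 genes of smallest p among S phase and among G2/M genes. From other lists, genes with an adjusted p under 0.05 in either fit and Cdkn1a were named. The p-values of the edgeR, DESeq2 and limma-voom fits weigh a group difference against the spread between animals. Permutation p-values of group differences came from reassigning libraries to groups. Those of correlations came from shuffling all 12 libraries without regard to group.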

Additional observations from a re-analysis of the deposited data

Results flagged for a closer look

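In 106 sets of 6 values (each of the 47 genes and 6 library measures in each group), a gap between 1 library and the rest exceeded Dixon's critical value of 0.625 in 4, where chance gives about 5.3. All 4 came from EPR fl/fl 3, which was the lowest of its group. Pcna was at 40.4 CPM there with the next at 56.2, and E2f1 at 2.18 with the next at 3.33. Ccnb2 was at 12.9 CPM with the next at 21.5, and Aurka at 7.59 with the next at 13.1. The genes vary together across libraries, so these are not 4 separate observations. The library had 30727736 counts and a smooth muscle score of 8.29, near the group median of 8.29, while its epithelial score of 8.12 was the lowest of the EPR fl/fl group. Without it the medians with no covariate were 0.40 for S phase and 0.16 for G2/M genes, and 46 of the 47 genes were above 0. What its part in these values is was not tested.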

How the results depend on the processing

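With no covariate, each of the 47 genes stayed above 0 under RLE, total counts, both other filters, DESeq2, limma-voom and the replicate block, and 0 were called except 1 by DESeq2 and 17 by limma-voom, fits that called 440 and 1372 of all genes higher against 141. Leaving out 1 library each gave 0 to 17 called with no covariate (17 without EPR cKO 1, 0 without any other). With the score it gave 0 to 1 (Ccnb2, without EPR fl/fl 3, where 189 of 15813 genes were called lower). With no covariate the S phase medians were 0.40 to 0.60 and the G2/M medians 0.16 to 0.36, and 46 or 47 genes were above 0. The G2/M median moved by over 1.5 times without EPR fl/fl 3 or EPR cKO 6, where it was 0.16. The difference in epithelial score ranged from 0.16 to 0.28. The S phase median was -0.040 with the score and 0.038 with the epithelial minus smooth muscle score. The G2/M median was -0.21 and -0.17. Called genes went from 1 to 0 among brakes and among G1 regulators and from 0 to 5 among histone genes with the score.

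The replicate numbers did not pair the samples, since deviations of same-numbered libraries correlated at -0.24 to 0.34. The replicate block gave 0 calls among the 47, with medians of 0.44 and 0.23, and with the score -0.11 and -0.26. It took the call from E2f3 and E2f4, whose log2 fold changes were 0.45 and 0.39, and put Hist1h3b at -0.065 with no covariate. Only libraries 1 and 6 correlated best with their own number.

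E2f4 also lost its call with total counts, with no low-count filter, and without EPR fl/fl 3, 4 or 5 or EPR cKO 3 or 6. E2f3 lost it in the same settings, without EPR cKO 6 included, and also without EPR cKO 2, 4 or 5. The cause was not tested. Their log2 fold changes were 0.33 to 0.40 and 0.40 to 0.46 in these settings. Histone calls with the score, 5 of the 179 genes called lower, numbered 4 of 175 with RLE, 18 of 448 with DESeq2, 3 of 169 with limma-voom and 1 to 8 without a single library other than EPR cKO 1. They numbered 0 of 363 with total counts, of 249 with no filter, of 65 with the block, of 261 with the epithelial minus smooth muscle score and of 2 without EPR cKO 1.

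Signs near 0 turned with the score for Pcna (0.018 with total counts, -0.12 to 0.013 over the libraries left out), Ccnd1 (0.0043 with total counts, 0.012 with the epithelial minus smooth muscle score, -0.17 to 0.0090 over the libraries left out), Mcm3 (-0.029 to 0.24 over the libraries left out) and Cenpa (-0.00039 with filterByExpr, -0.029 with limma-voom, -0.078 with the block, -0.17 to 0.098 over the libraries left out). Over the libraries left out, Ccnd2 ranged from -0.37 to 0.31 and Cdkn1a from -0.038 to 0.57 with the score, each lowest without EPR cKO 1. With no covariate the same ranges were -0.0097 to 0.33 for Hist1h2bm, -0.042 to 0.26 for Hist1h2bb, -0.10 to 0.29 for Hist1h2ab and -0.15 to 0.20 for Hist1h3b, each lowest without EPR cKO 6.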

Other observations

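A test chosen after the values were seen compared single genes with the epithelial score subtracted (log2 CPM minus score) by two-sided exact permutation over all assignments of the libraries, in the 13 genes given by library, with n = 6 per group. Ccne2 differed by 0.39 (exact p = 0.0346, adjusted over the 13 tests 0.3), Mcm3 by 0.40 (exact p = 0.0541) and Cdc6 by 0.30 (exact p = 0.0693). Mki67 differed by -0.042 (exact p = 0.775) and Ccnd2 by -0.0044 (exact p = 0.989). None passed adjustment over the 13.

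The log2 ratio of Pcna to Mki67 within a library, likewise chosen after the values were seen, was -2.07 ± 0.19 (SD, n = 6) in the controls and -1.89 ± 0.094 in EPR cKO, a difference of 0.18 (exact permutation p = 0.0628). Without EPR cKO 1 the difference was 0.21 (exact p = 0.0519). The ratio ranged from -2.31 to -1.81 in the controls and from -2.03 to -1.75 in EPR cKO, so that the groups overlapped.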
